A study of Arabidopsis thaliana with 18 samples.

Results

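The mutants sav1-1 and sav3-2 of Arabidopsis thaliana were compared directly with each other after 1 h of low R:FR light. The 6 arrays titled for sav1-1 or sav3-2 and for low R:FR, 3 of each mutant, were taken from the 18 arrays of the study. RNA came from whole seedlings aged 7 days, grown at 22 °C under constant red (13 µmol m-2 s-1) and blue light (1.23 µmol m-2 s-1), a mixture that served as white light. The sav1-1 SH and sav3-2 SH arrays, and the Col-0 SH arrays of the wild type beside them, were made after 1 h in which added far-red light (20.2 µmol m-2 s-1) brought the red to far-red ratio to 0.7. The sav1-1 Wc, sav3-2 Wc and Col-0 Wc arrays were made from seedlings left in white light. Each of these 6 groups had 3 arrays, which the submitters call independent biological replicates. In the gene table used for names, SHADE AVOIDANCE 1 is a synonym of DWF4 and SAV3 is a synonym of TAA1. The labels do not say which gene an allele affects, no second allele of either gene is among the groups, and no probe set used here names DWF4 or TAA1, so neither gene could check the labels.

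Plants read light poor in red relative to far-red as a sign of neighbours, through phytochrome photoreceptors, and respond with faster elongation of stems and leaf stalks. TAA1 is an aminotransferase that makes indole-3-pyruvate from tryptophan, a step of auxin synthesis that seedlings need for this response. DWF4 is the steroid 22-alpha-hydroxylase CYP90B1 of brassinosteroid synthesis, and brassinosteroids are steroid hormones that also promote elongation. Auxin rapidly raises its early response genes, among them Aux/IAA repressors and GH3 enzymes.

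Values are linear intensities, 1 per probe set and array, which were quantile normalized over the 18 arrays and taken as log2(intensity + 16). A level below is on that scale, whose lower end is 4, and a difference is sav1-1 minus sav3-2 on it. Folds are ratios of intensity + 16, so that they understate the change of dim genes. Array medians before normalization lay between 34.4 and 65.6. Within sav1-1 SH arrays correlated with r of 0.985 to 0.987 across probe sets, and within sav3-2 SH with r of 0.978 to 0.984. On the second principal component (12.3% of the variance), replicate 3 of every group stood off from the bulk of the other arrays. Levels of the green tissue genes RCA and PRK, the measured ones of that marker list, summed to intensities of 11180 to 11880 on the sav1-1 SH arrays and 10940 to 12210 on the sav3-2 SH arrays. The 4 measured root markers summed to 5102 to 5712 in sav1-1 SH and 5109 to 6612 in sav3-2 SH, and the 4 stomatal lineage markers to 366.5 to 381.3 and 376.1 to 435.8. Such sums follow their brightest members, and the root markers did not go 1 way. EXPA7 (0.71) and EXPA18 (0.48) stood higher in sav1-1 SH, and PYK10 (-0.14) and JAL22 (-0.02) did not. In white light EXPA7 was at 0.61, EXPA18 at 0.54, PYK10 at -0.01 and JAL22 at 0.05. The 2 seed storage markers stood at 18.1 to 29.4 in sav1-1 SH and 25.1 to 33.5 in sav3-2 SH. None of these markers was called between the mutants. With the replicate block, which called 2.36% of all probe sets, 1 of them was, the root hair gene EXPA7 described below. In whole seedlings, a change in the share of a cell type and a change of RNA per cell cannot be told apart.

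After low R:FR, the auxin-conjugating enzyme genes GH3.3 and WES1 were 7.54-fold and 3.01-fold higher in sav1-1 than in sav3-2. HAT2, a transcription factor gene of the shade response, was 3.87-fold higher and the auxin signalling repressor IAA29 2.93-fold. The IAA29 difference did not pass the test in most fits that left out 1 array, as described below. The starch-linked gene QQS stood out in the other direction, 11.8-fold higher in sav3-2 than in sav1-1. By limma, 149 probe sets were higher in sav1-1 and 76 were lower (Benjamini-Hochberg adjusted p under 0.05, here named called). They are 1.31% of the 17125 tested, with 0.87% higher and 0.444% lower. Of these 225, 49 were at least 2-fold higher and 23 at least 2-fold lower. At an unadjusted p under 0.05 there were 1528. The arrays of the mutants did not overlap for 224 of the 225 calls, against 15.1% of all probe sets. The same 6 arrays gave the calls, which favours such separation, so this count is a description. For the 15 genes named below in each direction, no overlap was a condition of the choice. A fit that took the replicate number as a block called 235 higher and 169 lower, with all 225 among them. Without the arrays numbered 3 there were 132 higher and 113 lower, 155 of them shared with the 225. Leaving out sav1-1 SH replicate 1, 2 or 3 left 113, 122 or 125 calls, and leaving out sav3-2 SH replicate 1, 2 or 3 left 117, 108 or 190. Of the 225, 97 are on probe sets that name 1 gene, 4 on probe sets that name several and 124 are unnamed here, so the genes below are a part of the difference.

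GH3 enzymes join auxin to amino acids and so lower the free hormone, and their genes are early targets of auxin. GH3.3 (AT2G23170) had levels of 9.71, 9.38 and 9.60 in sav1-1 SH and 6.93, 6.47 and 6.54 in sav3-2 SH, beside 8.59, 8.36 and 8.30 in Col-0 SH. All 3 sav1-1 arrays lay above all Col-0 arrays, and these above all sav3-2 arrays. The difference between the mutants was 2.91 (SE 0.14, limma adjusted p = 3.22e-11), and against Col-0 it was 1.15 in sav1-1 (adjusted p = 0.000373) and -1.77 in sav3-2 (adjusted p = 1.17e-07). WES1 (AT4G27260), also known as GH3.5, stood at 9.81, 9.65 and 9.79 in sav1-1 SH, 8.17, 8.13 and 8.18 in sav3-2 SH, and 9.37, 9.07 and 9.03 in Col-0 SH. The order of the groups was that of GH3.3, again with no overlap. Its difference of 1.59 (SE 0.14, adjusted p = 2.84e-07) is a 3.01-fold higher level in sav1-1, and against Col-0 the values were 0.59 in sav1-1 (adjusted p = 0.0788, and 0.00673 with the replicate block) and -1.0 in sav3-2 (adjusted p = 0.000158). The other measured GH3 genes were not called. GH3.17 was at 0.47 (adjusted p = 0.151, and 0.0121 with the replicate block), GH3.1 at 0.62 (adjusted p = 0.416) and GH3.9 at 0.30 (adjusted p = 0.819). All 5 measured GH3 genes therefore stood above 0, beside a median of -0.0034 over all probe sets tested. Of the 5, 2 were called, against 1.04% of all 9356 genes on probe sets that name 1 gene (0.609% higher and 0.428% lower). The list was chosen with earlier results of these data known, so these counts are a description.

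Aux/IAA proteins repress auxin-regulated transcription until auxin marks them for degradation, and IAA29 is one of them that low R:FR also induces. IAA29 (AT4G32280) had levels of 10.02, 9.49 and 9.77 in sav1-1 SH, 8.60, 8.43 and 7.61 in sav3-2 SH, and 10.22, 9.95 and 9.84 in Col-0 SH. The sav1-1 and Col-0 arrays overlapped and lay above every sav3-2 array, of which the third was the lowest. The difference of 1.55 (SE 0.35, adjusted p = 0.0239) passed the test, but the call did not survive the removal of any 1 array of the mutants other than sav3-2 SH replicate 1, with differences of 1.25 to 1.69 in those 5 fits. It was lost with a pseudocount of 1 (adjusted p = 0.0715) and with no filter on dim probe sets (adjusted p = 0.0505) too, and the replicate block gave an adjusted p of 0.000352. The remaining Aux/IAA genes measured were not called, with IAA34 at 0.56, IAA30 at 0.52 and IAA18 at -0.32 (adjusted p of 0.509, 0.179 and 0.445). Of the 31 Aux/IAA genes listed, 4 were on a probe set that names 1 gene and passes the filter, IAA29 included. Others may be on unnamed probe sets, so their differences are not known here.

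HAT2 (AT5G47370) encodes a homeodomain leucine zipper transcription factor of the shade-responsive HD-Zip class II. Its levels were 10.07, 10.07 and 9.83 in sav1-1 SH, 8.25, 8.18 and 7.69 in sav3-2 SH, and 10.31, 10.10 and 10.20 in Col-0 SH. The sav3-2 arrays lay apart below, while the sav1-1 arrays stood just under those of Col-0. The mutants differed by 1.95 (SE 0.13, adjusted p = 9.04e-09), a 3.87-fold higher level in sav1-1. Against Col-0, sav1-1 stood at -0.21 (adjusted p = 0.744) and sav3-2 at -2.16 (adjusted p = 3.80e-09). Of the 5 measured shade markers, HAT2 and IAA29 were called higher, where 0.609% of all genes were, and none was called lower. XTH33, a wall-modifying enzyme gene, was at 0.45 (adjusted p = 0.446), the XTH16 gene at -0.01 (adjusted p = 0.995) and BIM1, a brassinosteroid signalling factor, at -0.08 (adjusted p = 0.971). The marker list's median was 0.45, beside -0.0034 over all probe sets tested. This list too was chosen with earlier results of these data known, so its counts are a description.

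**Figure D1:**
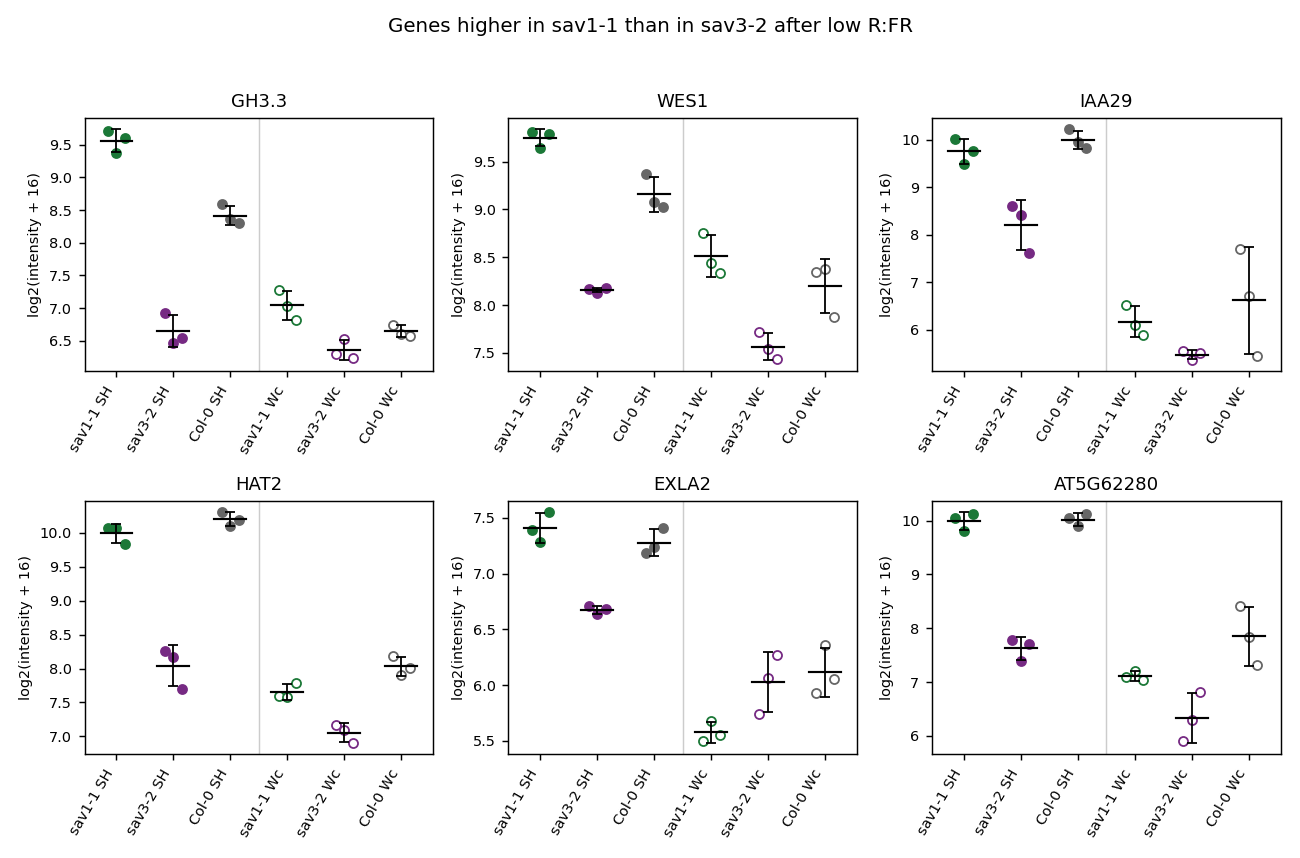
Level of 6 genes, log2(intensity + 16), on each array (points), with the mean and SD of each group of 3 arrays (bars); filled points are low R:FR (SH), open points white light (Wc). In SH the sav1-1 arrays lie above the sav3-2 arrays in every panel, and for GH3.3 and WES1 above Col-0 as well.

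EXLA2 (AT4G38400), an expansin-like gene of the family of wall-loosening proteins, had levels of 7.39, 7.28 and 7.55 in sav1-1 SH, 6.71, 6.64 and 6.69 in sav3-2 SH, and 7.18, 7.23 and 7.41 in Col-0 SH. The sav1-1 arrays were all above those of sav3-2 and overlapped those of Col-0. Its difference was 0.73 (SE 0.14, adjusted p = 0.00689), a 1.66-fold higher level, and the call was lost without the arrays numbered 3 (0.67, adjusted p = 0.0591), without normalization between arrays (0.79, adjusted p = 0.19) and without sav1-1 SH replicate 3 (0.66, adjusted p = 0.054). Its relatives EXLA1 and EXLA3 stood at 0.90 (adjusted p = 0.0655, and 0.0035 with the replicate block) and 0.67 (adjusted p = 0.32). Among the 15 measured expansin genes EXLA2 was the one called, where 1.04% of all genes were, and the list's median was 0.10. With the replicate block, which called 2.36% of all probe sets, 3 of the 15 were called, EXLA1 and EXPA7 (0.71, adjusted p = 0.0685 without the block and 0.0205 with it) besides EXLA2. None of 7 XTH genes was called, and their median was -0.01.

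STZ (AT1G27730), also called ZAT10, encodes a zinc finger repressor linked to abiotic stress. It had levels of 7.64, 6.91 and 7.90 in sav1-1 SH, 5.70, 6.08 and 6.37 in sav3-2 SH, and 5.93, 5.87 and 6.46 in Col-0 SH. Here the sav3-2 and Col-0 arrays overlapped, and sav1-1 lay above both. The mutants differed by 1.44 (SE 0.22, adjusted p = 0.00075). Against Col-0, sav1-1 stood at 1.40 (adjusted p = 0.00774) and sav3-2 at -0.04 (adjusted p = 0.97).

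Other genes among the 15 largest differences in this direction have only a locus name in the gene table. AT5G62280 had 10.05, 9.81 and 10.13 in sav1-1 SH, 7.79, 7.39 and 7.70 in sav3-2 SH, and 10.05, 9.89 and 10.12 in Col-0 SH. Its sav1-1 and Col-0 levels were interleaved, far above sav3-2, and the mutants differed by 2.37 (SE 0.21, adjusted p = 4.75e-07), 5.17-fold. AT4G27280 had 10.29, 9.85 and 10.22 in sav1-1 SH, 8.58, 8.44 and 8.39 in sav3-2 SH, and 9.06, 9.33 and 9.74 in Col-0 SH. There Col-0 lay between the mutants, which differed by 1.65 (SE 0.17, adjusted p = 5.10e-06). AT3G49960 was dim, with 5.90, 6.48 and 5.85 in sav1-1 SH, 4.09, 4.10 and 4.49 in sav3-2 SH, and 4.18, 4.90 and 4.87 in Col-0 SH. Its sav3-2 arrays sat at the lower end of the scale, and the difference was 1.85 (SE 0.26, adjusted p = 0.000217). With a pseudocount of 1 it was 4.03. Smaller differences were those of AT5G41400 (1.23), AT3G50340 (1.13), AT1G32920 (1.06) and AT1G23340 (0.96). Those of AT3G55840 (1.11), AT3G18250 (1.1) and AT5G04960 (1.03) were called, and those calls ended in 5, 5 and 4 of the 6 fits without 1 array. AT3G55840 (1.16, adjusted p = 0.0538) and AT5G04960 (0.87, adjusted p = 0.0812) were also lost without the arrays numbered 3.

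In the other direction the largest difference was in QQS (AT3G30720), QUA-QUINE STARCH, a gene found only in Arabidopsis thaliana and known to affect leaf starch. It had levels of 5.11, 5.35 and 5.04 in sav1-1 SH, 8.89, 8.56 and 8.72 in sav3-2 SH, and 5.46, 5.25 and 5.94 in Col-0 SH. The sav3-2 arrays stood far above those of sav1-1 and of Col-0, which overlapped. The difference between the mutants was -3.56 (SE 0.23, adjusted p = 6.18e-09), and -4.29 with a pseudocount of 1. Against Col-0, sav1-1 was at -0.39 (adjusted p = 0.721) and sav3-2 at 3.17 (adjusted p = 3.76e-08). QQS was the 1 gene called of 7 measured starch and sugar genes, where 0.428% of all genes were called lower, and the list's median was -0.03. The others, among them the starch branching enzyme SBE2.2 (0.05) and the disproportionating enzyme DPE1 (0.08), lay between -0.23 and 0.08.

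AT2G25510 was among the brightest of these genes, with 9.84, 9.89 and 10.55 in sav1-1 SH, 12.52, 12.52 and 12.62 in sav3-2 SH, and 9.88, 10.07 and 10.80 in Col-0 SH. Array 3 was the highest of both sav1-1 and Col-0, and still far below sav3-2. Its difference was -2.46 (SE 0.27, adjusted p = 8.86e-06), 5.48-fold higher in sav3-2 than in sav1-1. ECS1 (AT1G31580) had 11.51, 11.32 and 11.88 in sav1-1 SH, 12.87, 12.80 and 12.90 in sav3-2 SH, and 11.93, 11.69 and 12.17 in Col-0 SH. The sav3-2 arrays lay above the rest, and the difference was -1.29 (SE 0.17, adjusted p = 9.02e-05). AT1G19960 had 6.98, 7.46 and 6.98 in sav1-1 SH, 9.41, 9.14 and 8.49 in sav3-2 SH, and 7.34, 6.94 and 7.26 in Col-0 SH. Its sav1-1 and Col-0 arrays overlapped below those of sav3-2, with a difference of -1.88 (SE 0.19, adjusted p = 2.55e-06).

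BHLH101 (AT5G04150) encodes a basic helix-loop-helix factor of the iron deficiency response. Its levels were 5.49, 6.11 and 5.44 in sav1-1 SH, 6.80, 7.21 and 6.57 in sav3-2 SH, and 5.62, 5.91 and 6.14 in Col-0 SH. The sav1-1 and Col-0 arrays overlapped and all lay below sav3-2. The difference was -1.18 (SE 0.25, adjusted p = 0.014), and the call ended in 4 of the 6 fits without 1 array. PYE and ILR3, the other iron homeostasis genes measured, were at -0.33 (adjusted p = 0.79) and -0.02 (adjusted p = 0.986). GSTU27 (AT3G43800), a glutathione transferase, was the 1 called of 11 measured genes of its family, beside 0.428% of all genes called lower. It had 8.06, 8.04 and 8.17 in sav1-1 SH, 8.83, 8.91 and 8.65 in sav3-2 SH, and 8.32, 8.38 and 8.48 in Col-0 SH, in 3 ranges that do not overlap. Its difference was -0.71 (SE 0.12, adjusted p = 0.00252), and -0.65 with an adjusted p of 0.925 without normalization between arrays.

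The remaining genes among the 15 largest negative differences were AT2G41090 (-1.78), AT5G24240 (-1.43), AT4G23680 (-1.38), AT1G35710 (-1.32) and AT3G22240 (-1.25). AT5G24240 lay at 4.10, 4.22 and 4.14 in sav1-1 SH, the lower end of the scale, against 5.48, 5.90 and 5.37 in sav3-2 SH. AT4G23680 had 8.01, 8.23 and 8.47 in sav1-1 SH, 9.36, 9.52 and 9.98 in sav3-2 SH, and 8.87, 9.13 and 9.87 in Col-0 SH. There Col-0 overlapped sav3-2 and not sav1-1, with sav1-1 at -1.05 against Col-0 (adjusted p = 0.0398) and sav3-2 at 0.33 (adjusted p = 0.622). AT5G03350 (-1.81), AT2G32160 (-1.24), AT5G37990 (-1.09), AT1G65490 (-1.09) and AT1G28600 (-1.04) were called, and those calls ended in 3, 3, 4, 4 and 5 of the 6 fits without 1 array. With a pseudocount of 1 the differences of the dim genes AT5G24240 (-3.59), AT1G35710 (-2.21) and AT2G32160 (-2.48, adjusted p = 0.0721) were larger, and the last was not called. AT1G65490 and AT1G28600 were also lost without normalization between arrays (adjusted p of 0.0558 and 0.0889).

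**Figure D2:**
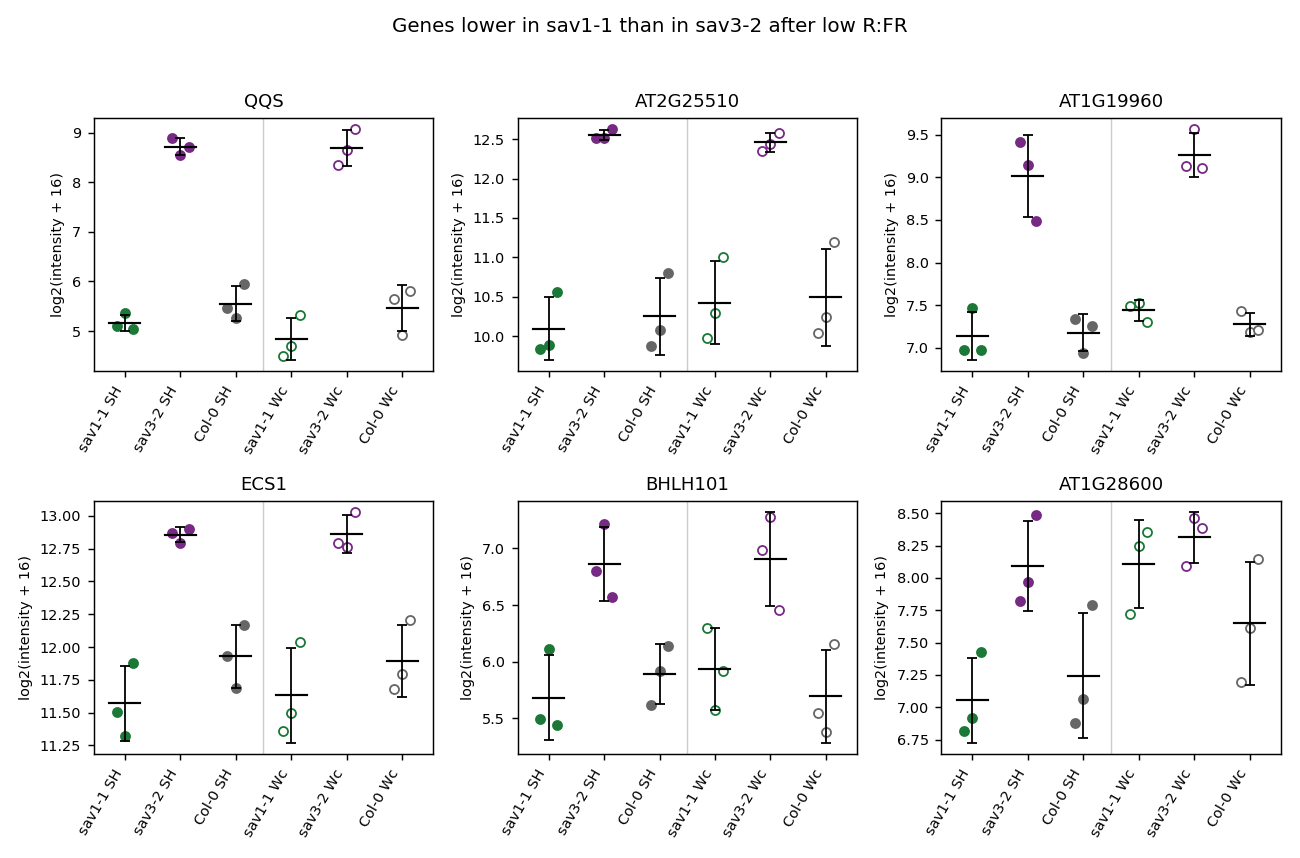
Level of 6 genes, log2(intensity + 16), on each array (points), with the mean and SD of each group of 3 arrays (bars); filled points are low R:FR (SH), open points white light (Wc). In SH every sav1-1 array lies below every sav3-2 array, and the same order holds in Wc in every panel but that of AT1G28600.

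White light arrays of the same mutants show which differences stood without low R:FR. They are separate arrays, but share the estimate of the spread in the fit. In sav1-1 Wc 58 probe sets were higher than in sav3-2 Wc and 55 lower, 0.66% of those tested (0.339% and 0.321%). Without sav1-1 Wc replicate 1 or 2, or sav3-2 Wc replicate 2, there were 60, 56 and 51 calls, and without the arrays numbered 3 there were 178. With the replicate block there were 153 higher and 121 lower. Without normalization between arrays the split was 53 higher and 26 lower, with the median of all probe sets at 0.11. Of the 225 calls after low R:FR, 77 were called in white light in the same direction, which is 34.2% of the 225 and 68.1% of the 113. By direction they were 37 of the 149 higher (24.8%) and 40 of the 76 lower (52.6%). Called or not, the white light difference had the same sign for 85.9% of the higher and 97.4% of the lower calls. Over all probe sets tested the signs matched for 60.7%. A missing call in white light does not show that a difference was absent, and a matching sign does not show that it was present.

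Among the 15 named genes lower in sav1-1, 12 were also called lower in white light (14 with the replicate block), and their median difference was -1.32 in low R:FR and -1.45 in white light. QQS had levels of 4.50, 4.70 and 5.32 in sav1-1 Wc and 8.35, 8.65 and 9.07 in sav3-2 Wc, a difference of -3.85 (adjusted p = 2.62e-09). These white light levels lie close to those after low R:FR. AT2G25510 (-2.03), AT1G19960 (-1.82) and ECS1 (-1.23) were called there too. BHLH101 was at -0.97 (adjusted p = 0.0846, and 0.0319 with the replicate block), AT5G37990 at -1.02 (adjusted p = 0.0739, and 0.000629 with the block) and AT1G28600 at -0.21 (adjusted p = 0.893).

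Among the 15 named genes higher in sav1-1, 7 were called higher in white light (10 with the replicate block). Their median was 1.44 in low R:FR and 0.77 in white light. The difference was farther from 0 in low R:FR than in white light for 14 of these 15 and for 8 of the 15 lower genes. Both sets were chosen by their low R:FR differences, which favours that order, so these counts and medians are a description. WES1 was called in both, with 8.76, 8.44 and 8.34 in sav1-1 Wc and 7.72, 7.54 and 7.44 in sav3-2 Wc, a difference of 0.95 (adjusted p = 0.000577). So were AT4G27280 (1.26), AT3G49960 (1.22), AT5G04960 (1.09) and AT1G32920 (0.86). STZ was at 0.87 (adjusted p = 0.0937, and 0.00259 with the block), AT3G18250 at 1.03 (adjusted p = 0.0643, and 0.00417 with the block) and AT5G62280 at 0.77 (adjusted p = 0.142, and 0.0487 with the block). IAA29 stood at 0.70 (adjusted p = 0.593), AT5G41400 at 0.32 (adjusted p = 0.544) and AT3G55840 at -0.14 (adjusted p = 0.929).

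**Figure D3:**
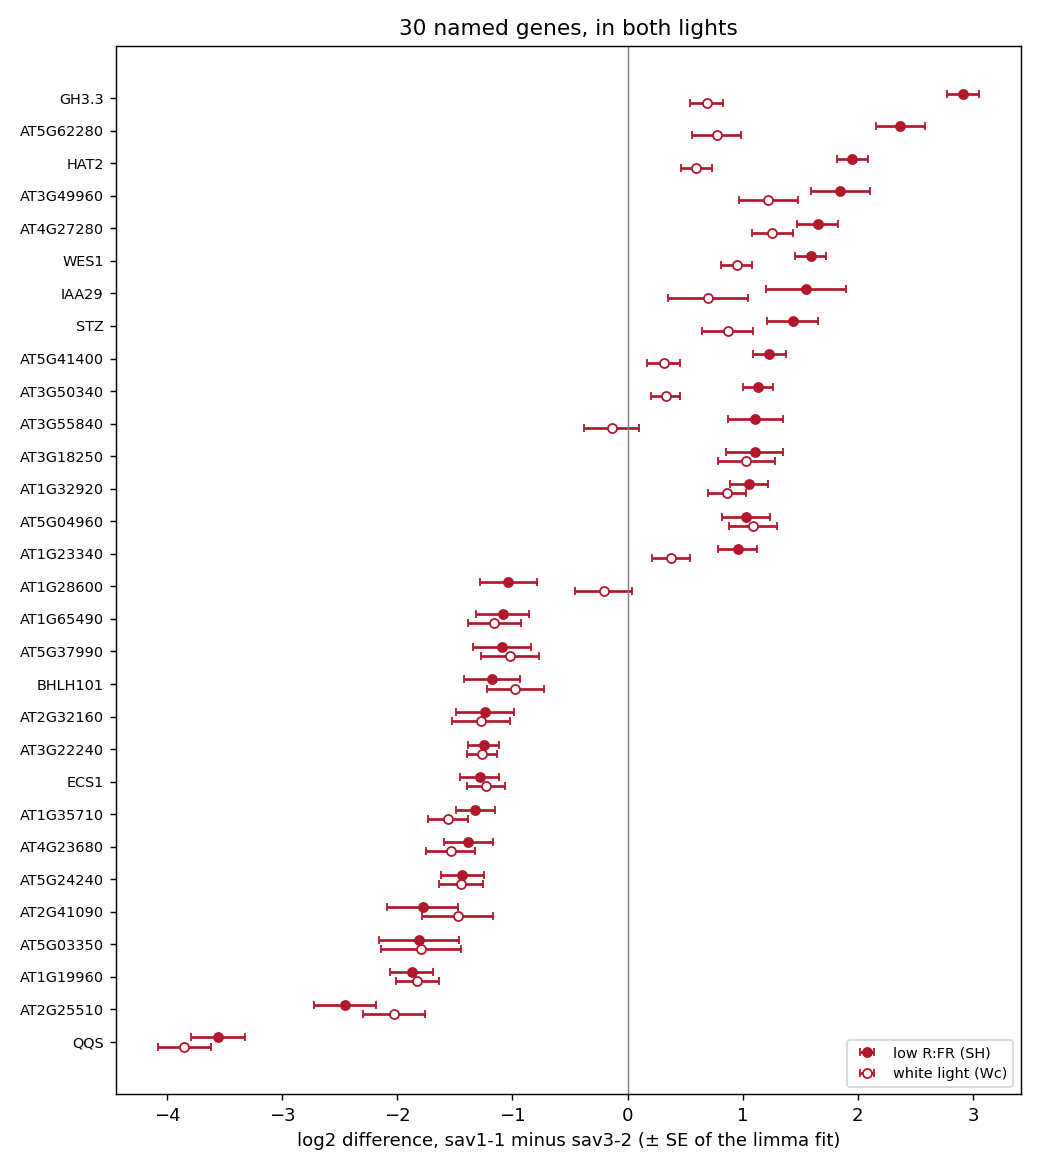
Difference sav1-1 minus sav3-2, log2 scale, for the 30 named genes in low R:FR (filled) and in white light (open), with the SE of the limma fit (bars). Filled and open points lie close together for most of the 15 lower genes, QQS at -3.56 and -3.85 among them, and far apart for GH3.3 (2.91 and 0.69) and HAT2 (1.95 and 0.60).

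Whether the difference between the mutants was itself different in the 2 lights was tested as an interaction. It was called for 7 probe sets, 0.0409% of those tested, all with a larger sav1-1 minus sav3-2 difference in low R:FR, and 533 had an unadjusted p under 0.05. The replicate block gave 11 calls. For GH3.3 the white light levels were 7.27, 7.04 and 6.82 in sav1-1 Wc and 6.30, 6.52 and 6.24 in sav3-2 Wc. These do not overlap either, but the difference of 0.69 (adjusted p = 0.02) was smaller than that after low R:FR by 2.23 (SE 0.20, adjusted p = 4.63e-06). HAT2 had 7.60, 7.58 and 7.79 in sav1-1 Wc and 7.17, 7.09 and 6.91 in sav3-2 Wc. Its white light difference of 0.60 (adjusted p = 0.0364) was smaller by 1.35 (SE 0.19, adjusted p = 0.00121), a call that ended without normalization between arrays (1.3). EXLA2 had 5.50, 5.68 and 5.55 in sav1-1 Wc and 5.74, 6.07 and 6.27 in sav3-2 Wc. The sav1-1 arrays thus lay below those of sav3-2 in white light (-0.45, adjusted p = 0.238) and above them after low R:FR, and the difference between lights was 1.18 (SE 0.20, adjusted p = 0.0149). That call was lost without the arrays numbered 3 (0.98, adjusted p = 0.6) and without normalization between arrays (1.14), and in 6 of the fits without 1 array.

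The other 4 calls of this kind are on unnamed probe sets. The one with the largest difference between lights had 7.90, 7.81 and 7.46 in sav1-1 SH and 5.30, 5.39 and 5.0 in sav3-2 SH, against 4.10, 4.62 and 4.65 in sav1-1 Wc and 5.11, 4.97 and 4.20 in sav3-2 Wc. The mutants' arrays were apart after low R:FR and mixed in white light. The remaining ones differed by 2.63, 1.99 and 2.4 after low R:FR, and by 0.19, -0.02 and -0.03 in white light. The first and the last of the 4 lost their call with a pseudocount of 1, and both sit near the lower end of the scale in white light. AT5G62280 had a difference between lights of 1.60 that was not called (adjusted p = 0.0627), and the replicate block gave an adjusted p of 0.0193.

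**Figure D4:**
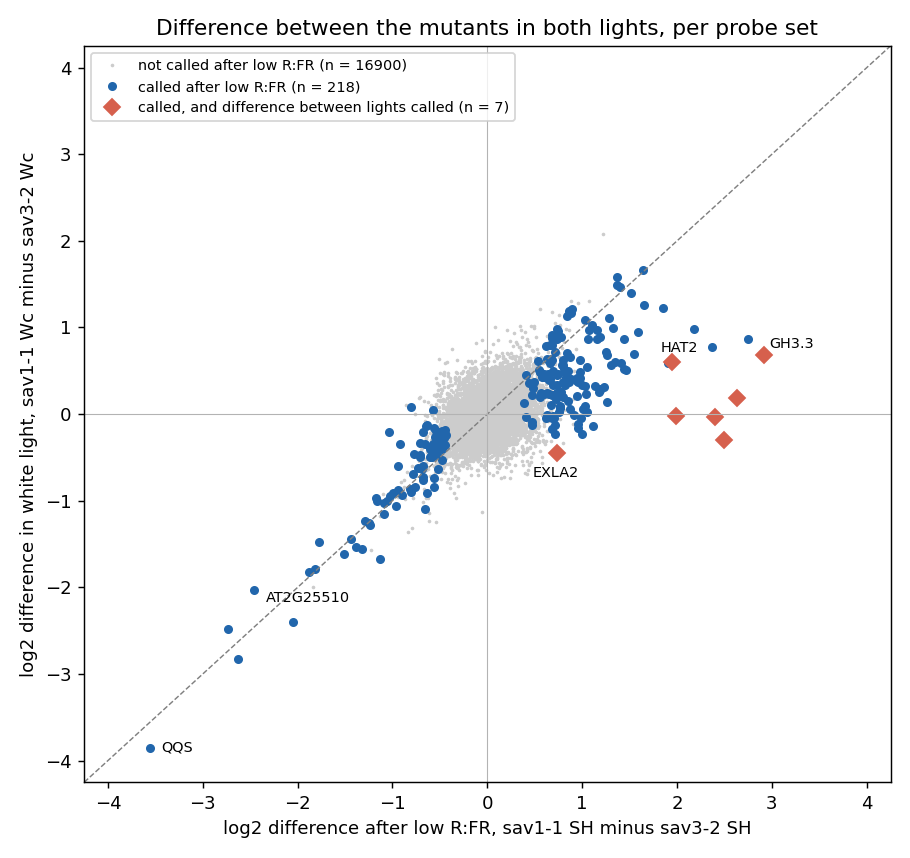
Difference sav1-1 minus sav3-2 of each of the 17125 probe sets after low R:FR (horizontal) and in white light (vertical), log2 scale, with calls after low R:FR in blue and the 7 with a called difference between lights as diamonds. The lowest points follow the dashed line of equal differences, while the highest lie below it.

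The Col-0 SH arrays place the wild type beside both mutants. These values are a description, since they share the mutant arrays with the comparison itself. The Col-0 SH mean was nearer to sav1-1 SH than to sav3-2 SH for 10 of the 15 named genes higher in sav1-1 and for 13 of the 15 lower ones. Over all 225 calls it was 146 (64.9%), against 53.4% of all probe sets tested, and 60.4% of the higher and 73.7% of the lower calls. Of the higher named genes, sav1-1 differed from Col-0 for 4 and sav3-2 for 9, where over all probe sets 0.204% were called for sav1-1 and 1.03% for sav3-2. The 4 were GH3.3, STZ, AT3G49960 and AT1G32920, and with the replicate block WES1, AT4G27280 and AT3G18250 joined them, for 7 in sav1-1 and 9 in sav3-2. Of the lower named genes, sav1-1 differed from Col-0 for 1, AT4G23680, and sav3-2 for 10. With the replicate block these were 2, with AT5G37990 added, and 13. The shares of 0.204% and 1.03% are from the fit without the block, so the counts with the block have no matching share here.

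A gene counts as measured here if a probe set names it alone and passes the filter. Few genes of hormone synthesis and signalling were measured in this sense, and none of those named in this paragraph was called. YUC2 and YUC6, flavin monooxygenases that act after TAA1, were the measured auxin synthesis genes. YUC2 had 6.63, 6.46 and 6.68 in sav1-1 SH, 7.04, 6.89 and 6.80 in sav3-2 SH, and 6.55, 6.31 and 6.54 in Col-0 SH. Its sav1-1 arrays lay below those of sav3-2, yet the difference of -0.31 was not called (adjusted p = 0.388), and YUC6 stood at -0.47 (adjusted p = 0.719). No brassinosteroid synthesis gene is on a probe set that names 1 gene here. With 8730 probe sets unnamed, those genes may be on the arrays, but their levels could not be looked up. The receptor-like kinase gene BRL1 was at -0.28 (adjusted p = 0.873), and the brassinosteroid-induced list of EXPA4, EXPA8 and XTH19 had 0 of 3 called and a median of 0.10. The 4 measured gibberellin genes, the receptors GID1A, GID1B and GID1C and the F-box gene SLY1, had 0 called and a median of 0.06. With 1.04% of all genes called, 0 called does not set lists this small apart.

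Of the 47 lists, 26 had at least 3 measured members, and 7 of these held a call, with IAA29 in both the Aux/IAA and the shade marker lists. All lists were chosen with earlier results of these data known, so counts of calls in them are a description. With 1.04% of all genes called, a list with 0 called is not set apart from the rest. The lists with 0 called included 69 chloroplast-encoded genes with a median of -0.04, 34 UDP-glycosyltransferases (0.02), 14 cytochrome P450 genes (-0.08), 8 light harvesting and photosystem genes (0.02) and 8 cold, ABA and LEA genes (-0.01). Salicylate and immune genes (3 measured), jasmonate and wounding genes (3 measured), WRKY factors (5 measured) and bZIP factors (7 measured) had none called either. With the replicate block, which called 2.36% of all probe sets, 1 WRKY factor was called, WRKY6 (0.54, adjusted p = 0.0513 without the block). The cytochrome P450 and glucosinolate lists then held 1 called gene each. Of the 31 Aux/IAA genes listed 4 were measured and of the 225 cytochrome P450 genes 14, while 34 of the 58 UDP-glycosyltransferases were.

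**Figure D5:**
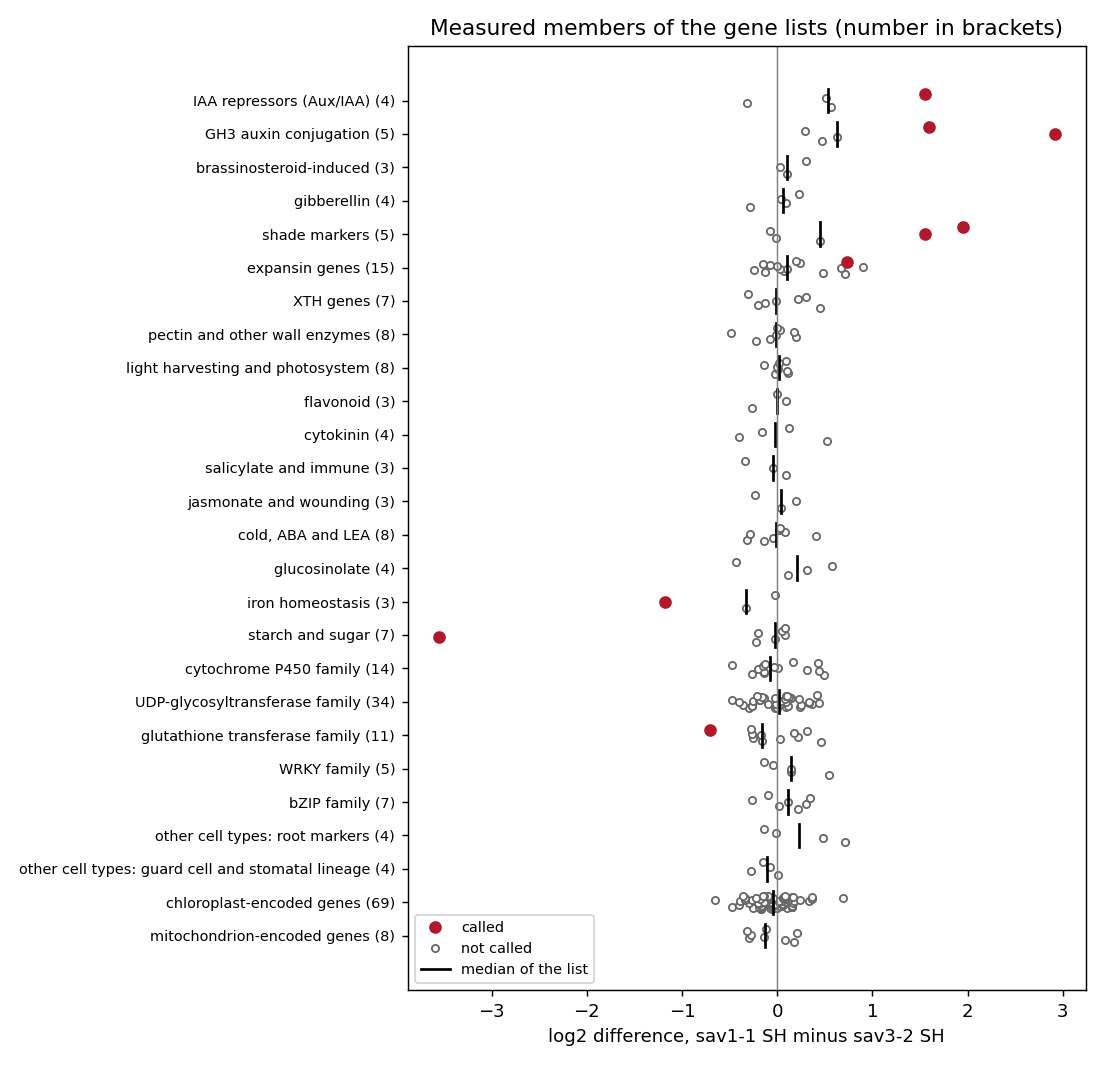
Difference sav1-1 minus sav3-2 after low R:FR, log2 scale, for each measured member (points) of the 26 gene lists with at least 3 measured members, with calls filled and the list's median as a bar. The medians farthest from 0 are those of the GH3 (0.62), Aux/IAA (0.54) and shade marker (0.45) lists on the right and of iron homeostasis (-0.33) on the left.

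Besides the 15 largest differences in each direction and EXLA2, 41 genes were called higher, with differences of 0.39 to 0.95, and 25 lower, with -0.44 to -0.99, GSTU27 among them. Among these smaller differences 32 of the 41 and 17 of the 25 calls ended in 3 or more of the 6 fits without 1 array, against 4 and 6 of the 15 named in each direction. Some were chosen here after their values were seen, because the gene table describes them. LBD16, a lateral organ boundaries factor of lateral root formation downstream of auxin, was at 0.64 (adjusted p = 0.0346), and was lost in all 6 such fits. BRH1, a RING-H2 gene described as brassinosteroid-responsive, was at 0.66 (adjusted p = 0.0324), with 9.03, 8.75 and 9.01 in sav1-1 SH, 8.31, 8.24 and 8.27 in sav3-2 SH, and 8.91, 8.66 and 8.51 in Col-0 SH. Its sav1-1 and Col-0 arrays overlapped above sav3-2, and the call was lost in 5 of 6 such fits. The defence-linked genes CHI, a chitinase (0.84, adjusted p = 0.0324), and PDF2.5, a plant defensin (0.73, adjusted p = 0.0357), were also called in white light (1.14 and 0.98), and both were lost in 5 of 6 such fits. Of the measured salicylate and immune genes 1 of 3 stood above 0 (median -0.04), and of the jasmonate and wounding genes 2 of 3 (median 0.04). None of those was called, so the genes picked here do not stand for a list.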

How the data were processed

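Seedling RNA was measured on Affymetrix arrays, 18 in 6 groups of 3, grouped by sample title. The authors deposited linear intensity values, 1 per probe set and array, for 22810 probe sets, and GCRMA is the tool listed per the submitters' processing notes. The way it was run is not stated there. The 64 control probe sets were left out and the rest quantile normalized. Probe sets above a log2 intensity of 4 on at least 3 arrays were kept, 17125 of 22746. A model of group means over all 18 arrays was fitted on log2(intensity + 16) with limma 3.58.1 in R 4.3.3 (lmFit, eBayes with trend), so the 6 groups share 1 estimate of the spread. Calls have a two-sided Benjamini-Hochberg adjusted p under 0.05. SE is that of the moderated fit and SD is over 3 arrays. The number of arrays limits the precision, and no detection calls were used. The script was tested on simulated data.

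Probe sets were named from the platform annotation and a TAIR10.1 gene table: 13508 name 1 gene of the table, 5 name 1 gene outside it, 503 name several and 8730 are unnamed here. The brightest probe set stood for a gene. Symbols that the gene table gives to another kind of gene (CHI, FMO, PRXIIF, PGM and CCR2) were taken out of lists. The genes compared and the 47 lists were chosen with earlier results of these data known. Named are the 15 called genes with the largest difference in each direction whose arrays do not overlap, genes called in the interaction, called list members, and all measured Aux/IAA, GH3, auxin synthesis, brassinosteroid synthesis and shade marker genes. A search of promoters was planned and not run.

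Deviations from group means correlated in all 3 same-numbered pairs of the mutants, with r of 0.185, 0.157 and 0.329 in low R:FR and 0.127, 0.145 and 0.203 in white light. By the rule that each exceed 0.1 the numbers were taken to pair the arrays, so the fit with the replicate number as a block is given where it changes a call. The main fit had no block, and the named genes, SEs and adjusted p values are from it unless the block is named. It leaves this pairing out, and its 225 calls after low R:FR were all among the 404 with the block. The labels do not say that numbers mark a shared day. Alternatives were no normalization, median scaling, a pseudocount of 1, no filter or one at a log2 intensity of 6, the replicate block, only the groups compared, array weights, and leaving out each array or all arrays numbered 3.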

Additional observations from a re-analysis of the deposited data

Results flagged for a closer look

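For 7 probe sets the difference between sav1-1 and sav3-2 was itself different in low R:FR and in white light by the interaction test in limma, and all 7 were also called higher in sav1-1 after low R:FR. The difference between lights was 2.23 for GH3.3, 1.35 for HAT2 and 1.18 for EXLA2. On the 4 unnamed probe sets it was 2.80, 2.45, 2.43 and 2.02. In all 7, the Col-0 SH mean was nearer to sav1-1 SH than to sav3-2 SH, as for 64.9% of the 225 calls and 53.4% of all probe sets tested. The same mutant arrays chose the 7, so this is a description.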

How the results depend on the processing

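The 225 calls after low R:FR became 96 without normalization between arrays, 404 with the replicate block and 390 with array weights, and lay between 108 and 190 when 1 array was left out. The 113 calls in white light became 274 with the replicate block, 257 with array weights and 178 without all arrays numbered 3, and lay between 51 and 95 when 1 array was left out. The 7 calls of the difference between lights became 11 with the block and 12 with array weights, and 6 to 8 when 1 array was left out. The median of all probe sets in white light moved to 0.11 without normalization. Of the 30 largest named differences, 2 lost their call without normalization, 3 with a pseudocount of 1, 4 with no filter, 2 without the arrays numbered 3 and 4 to 10 when 1 array was left out. None of the 30 changed direction in these fits. With the block, median scaling, array weights or only the groups compared none of the 30 was lost. The filter at a log2 intensity of 6 kept 23 of the 30, and none of those lost its call. The rest could not be tested there. XTH16, not called, turned to 0.0425 without normalization, 0.11 without the arrays numbered 3 and lay between -0.22 and 0.23 when 1 array was left out, with 0.0071 and 0.0887 in 2 of these fits. BIM1, not called, lay between -0.29 and 0.13 there, with 0.0223 and 0.0258 in 2 of these fits. The cause of these changes was not tested. In fits that left out 1 array, a group of 2 remained. Dim probe sets lie near the lower end of the scale, where differences are understated.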
